A study of Rattus norvegicus with 12 samples.

Results

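The genes described here are 10 of the mitochondrially encoded subunits of the respiratory chain and of ATP synthase in β-synuclein-reactive CD4+ T cells of the rat. They were chosen as a fixed list of 10 Ensembl identifiers, and all 10 were found among the 32754 gene rows of every library. They are Mt-nd1 (ENSRNOG00000030644), Mt-nd2 (ENSRNOG00000031033), Mt-nd3 (ENSRNOG00000033615), Mt-nd4 (ENSRNOG00000029707) and Mt-nd5 (ENSRNOG00000029971) of complex I, Mt-cyb (ENSRNOG00000031766) of complex III, Mt-co1 (ENSRNOG00000034234), Mt-co2 (ENSRNOG00000030371) and Mt-co3 (ENSRNOG00000030700) of complex IV, and Mt-atp6 (ENSRNOG00000031979) of complex V. Mt-nd4l, Mt-nd6 and Mt-atp8 are also mitochondrially encoded but are not in the list, and sums over the list leave them out. The deposited files hold identifiers without names, and the names come with the list, so that they could not be checked against an annotation. All 10 names are those of genes on the mitochondrial chromosome, and coordinates, lengths and sequences for them were not used here.

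RNA was sequenced from sorted T cells, 3 days after intravenous transfer per the series' design text, in 12 libraries of LEW/Crl rats. Cells with the genotype b-syn TCR Tg, which carry a transgenic T cell receptor for the neuronal protein β-synuclein, were taken from the brain parenchyma (3 libraries), from the meninges, which envelop the brain (3 libraries), and from blood (3 libraries). Cells with the genotype wt were taken from blood alone (3 libraries), so the genotypes could be compared only there. The sources used here do not give the transgene's promoter, the host animals or any pooling of cells. The titles of the parenchyma libraries end in the digit 4, where those of the other libraries carry a 3; if this digit marks a day, tissue and day cannot be told apart in the parenchyma.

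Mitochondrial DNA of mammals encodes core subunits of complexes I, III and IV, which pass electrons to oxygen and pump protons, and of complex V, which uses the proton gradient to make ATP. Complex II is encoded wholly in the nucleus, and so are most subunits of the other complexes. The mitochondrial genes are copied into long precursors that span many genes, which are then cut at the transfer RNAs between them and mostly polyadenylated, so that the steady-state level of each messenger also depends on its stability. In T cells, activation is known to raise respiration and the mass of mitochondria together with glycolysis.

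Library totals ran from 16643832 to 38601400 counts, and between 14409 and 17095 rows had at least 1 count. The 17095 rows were those of Tg parenchyma replicate 3, and the next highest number was 15725, in Tg parenchyma replicate 1. Tg parenchyma replicate 3 also had the lowest share of counts in the listed genes and the highest proportion of Mt-co1 among them. The WT blood libraries were the deepest, with 29959282 to 38601400 counts, against 16848739 to 21229957 counts in Tg blood. The 20 most abundant genes held between 8.95% and 12.5% of the counts of a library. Because names were at hand for the listed genes only, markers of T cells and of other cell types could not be looked up, and the labelled cell type was not checked. In these bulk samples, fewer cells of a type and less RNA per cell cannot be told apart.

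The listed mitochondrial genes together took between 3.52% and 6.25% of the counts of a library, and their summed share overlapped between all 4 groups. They took 5.07%, 3.78% and 3.52% of the counts in replicates 1, 2 and 3 of Tg parenchyma. The shares were 5.71%, 4.07% and 3.64% in Tg meninges. In blood they were 3.82%, 3.55% and 4.70% in Tg cells, against 5.27%, 6.25% and 3.91% in WT cells. Each share rests on at least 677411 counts, and its 95% Wilson interval, which covers counting error only, was at most 0.0202 percentage points wide. The replicates thus differed by far more than counting error. The highest library of a group exceeded its lowest by 1.44-fold in Tg parenchyma, 1.57-fold in Tg meninges, 1.32-fold in Tg blood and 1.60-fold in WT blood.

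Group means of the share were 4.12% ± 0.828 in Tg parenchyma, 4.47% ± 1.095 in Tg meninges, 4.02% ± 0.600 in Tg blood and 5.14% ± 1.17 in WT blood (SD, n = 3 each). The mean of the meninges lay 0.455 percentage points above that of Tg blood, and the mean of the parenchyma 0.104 points above it. Parenchyma, at 4.12%, lay below meninges, at 4.47% (difference -0.351 points). The widest gap was between the genotypes in blood, with 4.02% in Tg cells against 5.14% in WT cells, a ratio of 0.782. All 4 differences of means had overlapping libraries. No test was made on the summed share. The sign of the difference between tissues changed with the library left out: the differences ranged from -0.165 to 0.872 points for meninges against blood, from -0.368 to 0.442 for parenchyma against blood and from -0.823 to 0.269 for parenchyma against meninges. Tg blood remained below WT blood in each such omission, by between 1.74 points (difference -1.74) and 0.569 points (difference -0.569).

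**Figure D1:**
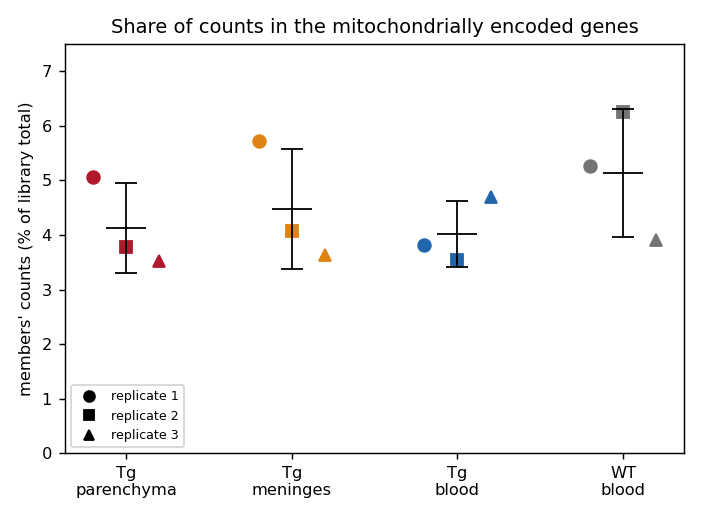
Share of the library's counts held by the listed mitochondrial genes (y axis, percent) in each of the 12 libraries, by group (x axis). Symbols mark replicate numbers, and bars the mean ± SD of 3 libraries. Libraries of all 4 groups overlap, between 3.52% in Tg parenchyma replicate 3 and 6.25% in WT blood replicate 2.

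Of the 10 genes, 9 had counts. Mt-co1, the catalytic core of cytochrome c oxidase, held the most counts of any gene in 8 of the 12 libraries and was second in the others. Mt-atp6, Mt-co2, Mt-co3 and Mt-cyb were among the 20 most abundant genes in all 12 libraries, Mt-nd1 in 9 and Mt-nd2 in 7. Mt-nd5 ranked between 23 and 97. Mt-nd3, a small membrane subunit of complex I, stood apart at ranks from 2036 to 4380. Mt-nd4, another core membrane subunit of complex I, was listed at 0 in all 12 libraries. A count of 0 allows up to 3 counts, which is between 0.0777 and 0.180 CPM (counts scaled to the library total) depending on the library, whereas Mt-nd5 had at least 946 CPM. Mt-nd4 could therefore be neither described nor tested. Ranks are by reads, which grow with the length of a gene, and are not levels per molecule.

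Among the subunits of complex I, Mt-nd5, a proton-pumping subunit, had 1792, 1534 and 946 CPM in Tg parenchyma and 1966, 1671 and 1335 CPM in Tg meninges. In blood it had 1240, 1454 and 1317 CPM in Tg cells, against 1950, 2544 and 1624 CPM in WT cells. Every Tg blood library lay below every WT blood library, while the tissues overlapped. Mt-nd1, which lies where the quinone binds in complex I, had 3297, 2493 and 2291 CPM in Tg parenchyma and 3364, 2873 and 2242 CPM in Tg meninges. In blood it had 2733, 2509 and 2640 CPM in Tg cells, against 3245, 4793 and 2823 CPM in WT cells. The genotypes did not overlap for Mt-nd1 either, by a narrow gap of 2733 CPM in Tg against 2823 CPM in WT. Such a lack of overlap between Tg and WT blood was common, at 43.9% of all tested genes. Mt-nd2, another proton-pumping subunit, had 2983, 2470 and 1938 CPM in Tg parenchyma and 3296, 2495 and 2275 CPM in Tg meninges. In blood it had 2528, 2243 and 2709 CPM in Tg cells, against 3586, 4525 and 2604 CPM in WT cells. The highest Tg library of Mt-nd2 lay above the lowest WT library. Mt-nd3 averaged 67.0 ± 14.2 CPM in Tg parenchyma, 72.5 ± 9.72 in Tg meninges, 87.1 ± 22.1 in Tg blood and 97.6 ± 14.9 in WT blood (SD, n = 3 each), with overlap between neighbouring groups.

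Among the subunits of complex IV, Mt-co1 had 17382, 11337 and 13042 CPM in Tg parenchyma and 17871, 12263 and 10440 CPM in Tg meninges. In blood it had 11316, 10379 and 14836 CPM in Tg cells, against 15567, 17744 and 11385 CPM in WT cells. One library in each tissue of the Tg cells stood well above the other two, and groups overlapped. Mt-co2, which receives electrons from cytochrome c, averaged 4755 ± 1095 CPM in Tg parenchyma, 5407 ± 1572 in Tg meninges, 4904 ± 794 in Tg blood and 6205 ± 1289 in WT blood (SD, n = 3 each). Mt-co3, the third core subunit, averaged 5109 ± 1079, 5706 ± 1538, 4946 ± 1084 and 6266 ± 1482 CPM in the same groups. The order of the group means was the same for both except at the low end, where Tg parenchyma and Tg blood lay within their spread of each other.

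Mt-cyb, the cytochrome b subunit of complex III, had 5636, 5046 and 4324 CPM in Tg parenchyma and 7338, 5523 and 5022 CPM in Tg meninges. In blood it had 5134, 5009 and 6549 CPM in Tg cells, against 6800, 8527 and 5250 CPM in WT cells. Mt-atp6, which helps form the proton path of ATP synthase, averaged 5807 ± 1357 CPM in Tg parenchyma, 6906 ± 1447 in Tg meninges, 6065 ± 710 in Tg blood and 7856 ± 1763 in WT blood (SD, n = 3 each). For both genes WT blood had the highest group mean and Tg meninges the next, and libraries of neighbouring groups overlapped.

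**Figure D2:**
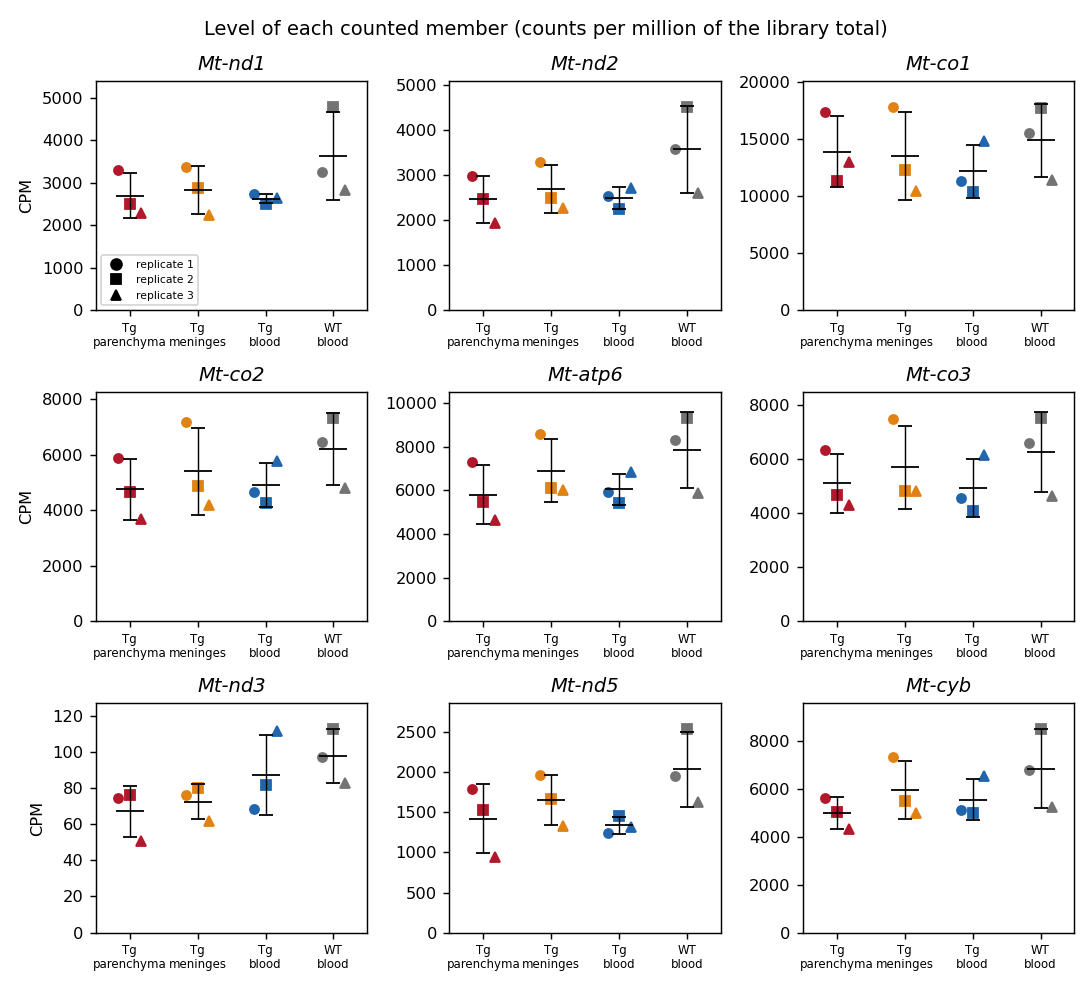
Level of each of the 9 counted genes (y axes, CPM, from 0) in every library, by group (x axes). Symbols mark replicates and bars the mean ± SD of 3 libraries. WT blood replicate 2 is the highest of the WT blood libraries in all panels, and Mt-nd1 and Mt-nd5 are the panels in which no Tg blood library reaches a WT blood library. Tg and WT blood also do not overlap in 43.9% of all tested genes.

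Genes were tested with edgeR's quasi-likelihood test on trimmed-mean (TMM) scaled counts, two-sided, with p-values adjusted by the Benjamini-Hochberg method over all genes tested and called under 0.05. The labels do not tie the replicates to separate rats or cultures. The p-values below thus reflect the variation among these libraries, part of which may be technical. The 9 counted genes passed the filter on low counts in all 4 comparisons. Intervals are 95% intervals from the fit, with the standard error (SE) approximated as the size of the log2 fold change divided by the square root of F.

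The comparisons of tissues asked how cells that had entered the brain differed from those in blood. In parenchyma against blood, none of the 9 genes was called by edgeR (0 of 9), whereas 35.1% of all tested genes were called. At an unadjusted p under 0.05 there were also 0, beside 45.3% of all genes. DESeq2 and limma-voom also called 0. The log2 fold changes of the members had a median of -0.035, beside 0.023 over all tested genes, and 4 were above 0 and 5 below. Mt-nd3 was farthest from 0, at 67.0 CPM in parenchyma and 87.1 CPM in blood (log2 fold change -0.40, SE 0.21, adjusted p = 0.172). Without Tg blood replicate 3 it was at -0.18, without parenchyma replicate 3 at -0.24, and over the other omissions of 1 library between -0.54 and -0.48. Mt-co1 had the highest estimate, at 13920 CPM in parenchyma and 12177 CPM in blood (log2 fold change 0.18, SE 0.25, adjusted p = 0.609). This was 0.34 without Tg blood replicate 3 and -0.014 without parenchyma replicate 1. The members' median was -0.20 without parenchyma replicate 1, -0.14 without Tg blood replicate 2, 0.10 without parenchyma replicate 3 and 0.023 without Tg blood replicate 3. The intervals of the 9 genes together ran from 0.549-fold to 1.66-fold, and none reached a 2-fold change in either direction. No gene had parenchyma libraries that all lay on one side of the blood libraries (0 of 9), which was the case for 46.0% of all tested genes.

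In meninges against blood, edgeR again called 0 of the 9 genes, where 6.51% of all tested genes were called. At an unadjusted p under 0.05 there were 0, beside 21.8% of all genes. DESeq2 and limma-voom called 0 as well. The members' median log2 fold change was 0.19, beside 0.0011 over all tested genes, and 8 of the 9 estimates were above 0, where 49.9% of all tested genes were below 0. Mt-nd5 had the highest, at 1658 ± 316 CPM in the meninges and 1337 ± 108 CPM in blood (SD, n = 3 each; log2 fold change 0.37, SE 0.22, adjusted p = 0.371). Mt-nd3 was the 1 gene below 0, with a log2 fold change of -0.21, which was 0.0038 without Tg blood replicate 3. Without meninges replicate 1, the Tg library with the highest share, the median was -0.040 and Mt-nd5 was at 0.20. The median was 0.073 without Tg blood replicate 2, and 0.34 and 0.33 without meninges replicate 3 or Tg blood replicate 3. The intervals ran from 0.623-fold to 1.82-fold, and none reached 2-fold. All 9 genes overlapped between the tissues, where 32.1% of all genes did not.

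In parenchyma against meninges, edgeR, DESeq2 and limma-voom each called 0 of the 9 genes, and edgeR called 15.5% of all tested genes. At an unadjusted p under 0.05 there were 0 in edgeR, beside 30.9% of all genes. All 9 estimates were below 0, with a median of -0.23, beside 48.4% below 0 and a median of 0.015 over all genes. Mt-cyb, at 5002 ± 657 CPM in parenchyma and 5961 ± 1219 CPM in meninges (SD, n = 3 each), had the lowest (log2 fold change -0.32, SE 0.19, adjusted p = 0.276), followed by Mt-atp6 (-0.32, SE 0.21, adjusted p = 0.332). With library totals in place of TMM, Mt-co1 was at 0.043. Without meninges replicate 1 the median was -0.020, Mt-cyb was at -0.14 and Mt-atp6 at -0.13. The median was -0.073 without parenchyma replicate 3, and -0.41 and -0.37 without parenchyma replicate 1 or meninges replicate 3. The intervals ran from 0.577-fold to 1.44-fold. No gene separated the libraries of the tissues (0 of 9), beside 34.5% of all genes. These tissue comparisons share libraries, and their values are not independent of each other.

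In blood, the genotypes were compared to see how transgenic cells differed from wild-type ones. Mt-nd5 was lower in Tg cells, at 1337 ± 108 CPM in Tg and 2040 ± 466 CPM in WT blood (SD, n = 3 each; log2 fold change -0.63, SE 0.19, edgeR adjusted p = 0.0340), lower in 3 of 3 Tg libraries than in any WT library. Such a lack of overlap was seen in 43.9% of all tested genes. The interval of Mt-nd5 ran from 0.485-fold to 0.864-fold. It was the 1 called gene of 9, where 25.8% of all tested genes were called and 12.8% were called lower, so that 1 call among 9 genes did not exceed the background. The call did not withstand the loss of most single libraries: the adjusted p was 0.118, 0.0581 and 0.0739 without Tg blood replicate 1, 2 or 3, and 0.0533 and 0.0944 without WT blood replicate 1 or 2. Without WT blood replicate 3 it was 0.0153. In a fit of all 12 libraries it was 0.0655. Over all alternatives the log2 fold change lay between -0.79 and -0.43 and the adjusted p between 0.00494 and 0.118.

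The other complex I genes of comparable abundance came next in size. Mt-nd2 averaged 2494 ± 235 CPM in Tg and 3572 ± 961 CPM in WT blood (SD, n = 3 each; log2 fold change -0.53, SE 0.22, edgeR adjusted p = 0.101). DESeq2 called it, with an adjusted p of 0.0447, and so did edgeR without a filter on low counts (0.0380) and without WT blood replicate 3 (0.0281), which made 3 calls in the 15 fits run. Without WT blood replicate 2 its log2 fold change was -0.32 (adjusted p = 0.304). Mt-nd1 averaged 2627 ± 113 CPM in Tg and 3621 ± 1037 CPM in WT blood (log2 fold change -0.48, SE 0.21, adjusted p = 0.123). It was not called in any of the 15 fits, and without WT blood replicate 2 its log2 fold change was -0.21 (adjusted p = 0.392). At an unadjusted p under 0.05, 3 of the 9 genes passed, beside 40.0% of all genes. All 9 estimates were below 0, with a median of -0.35, where 50.4% of all genes were below 0 and their median was -0.0053. Without WT blood replicate 2, the WT library with the highest share, the members' median was -0.21, and without WT blood replicate 3, the one with the lowest, it was -0.55. Without Tg blood replicate 2 it was -0.24. Mt-nd3 was nearest to 0 (log2 fold change -0.18, adjusted p = 0.537), and Mt-co1, Mt-cyb, Mt-co2, Mt-co3 and Mt-atp6 lay between -0.39 and -0.30. Tg and WT libraries did not overlap for 2 of the 9 genes, Mt-nd1 and Mt-nd5, beside 43.9% of all genes. The intervals of Mt-nd5 and Mt-nd2 reached past a 2-fold decrease, and the highest bound of any interval was 1.20-fold. The WT libraries were the deeper ones, and the part of depth in these differences was not tested.

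**Figure D3:**
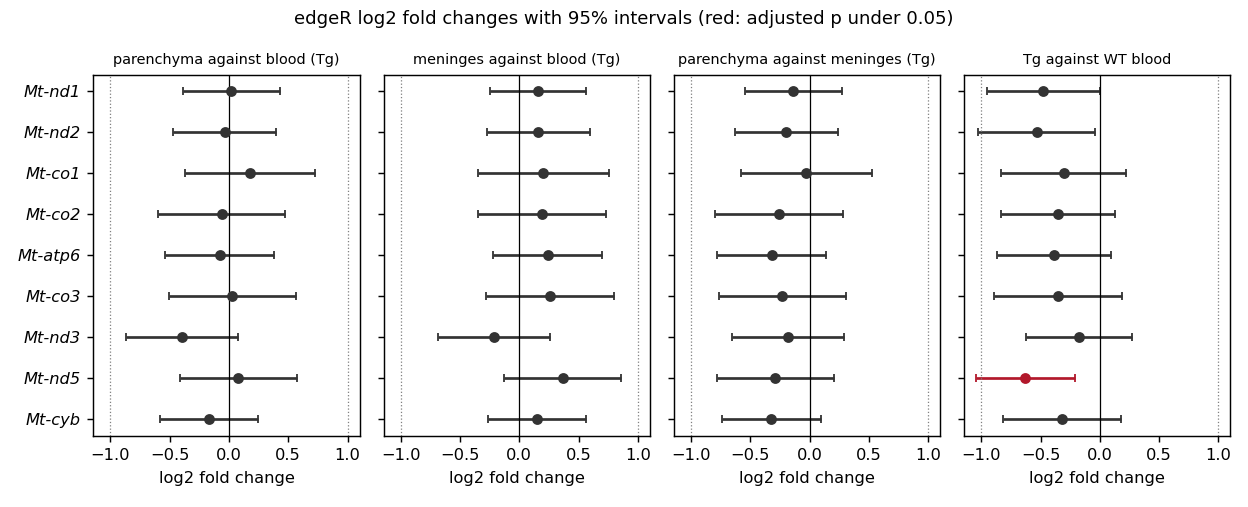
Log2 fold change of each counted gene (x axes) with its 95% interval from edgeR, in the 4 comparisons. The dotted lines mark 2-fold changes, the solid line 0, and red marks an adjusted p under 0.05. Mt-nd5 in Tg against WT blood, at -0.63, is the 1 red point, and the intervals of the tissue comparisons stay within the dotted lines.

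The members varied together between replicates of a group. After the group mean was taken from each log2 CPM value, the 36 pairs of counted genes had Pearson correlations between 0.617 and 0.976 over the 12 libraries, with a median of 0.870. These are descriptions over libraries whose depth and scaling all genes share. Mt-nd3 followed the others least, at 0.617 to 0.790. Parenchyma replicate 1, meninges replicate 1 and WT blood replicate 2 were above their group means for all 9 genes, with Mt-nd1 of WT blood replicate 2 at 0.47 and Mt-co1 of meninges replicate 1 at 0.47 on the log2 scale. Parenchyma replicate 3, meninges replicate 3 and WT blood replicate 3 were below for all 9. Estimates for the 9 genes in 1 comparison are therefore not 9 separate observations.

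The spread between replicates was large for genes of this abundance. The median SD of the members' log2 CPM was 0.31 in Tg parenchyma, 0.32 in Tg meninges, 0.24 in Tg blood and 0.38 in WT blood. Over the 100 most abundant genes it was 0.16, 0.12, 0.18 and 0.19 in the same groups, and over all 12105 genes that passed the filter over the 12 libraries 0.23, 0.18, 0.20 and 0.20. Members were not taken out of these 100 genes. The members' median includes Mt-nd3, which is far less abundant, at ranks from 2036 to 4380. Pooled over groups, the SD of Mt-co3 was 0.36, larger than that of 95% of the 100 most abundant genes, and that of Mt-cyb was 0.29, larger than that of 81%. The standard errors of the fold changes were wider for the members than for genes in general, with a median of 0.21 for the members and 0.18 for all tested genes in parenchyma against blood.

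**Figure D4:**
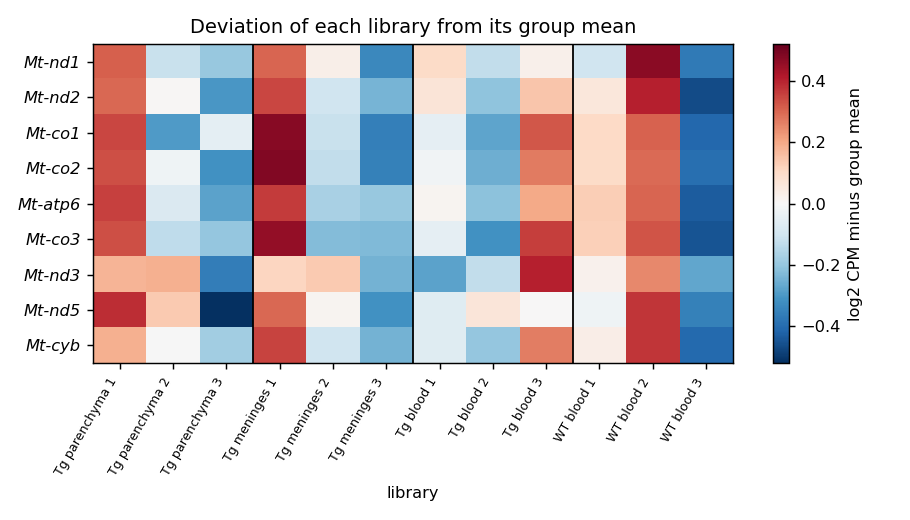
Deviation of each library (x axis) from the mean of its group for each counted gene (y axis), as log2 CPM minus the group mean (colour, red above and blue below). Columns are mostly of 1 colour from top to bottom, as in meninges replicate 1, where Mt-co1 is at 0.47, and in WT blood replicate 3, which is blue throughout.

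The proportions of the members to each other also varied between libraries. From the lowest to the highest library the proportion of a gene differed by 1.15-fold for Mt-co3, the steadiest, and by 1.55-fold for Mt-nd5 and 1.78-fold for Mt-nd3, the most variable. Of the counts that fell on the members, complex IV genes took 57.6% ± 2.60 in Tg parenchyma, 54.7% ± 1.91 in Tg meninges, 54.6% ± 2.22 in Tg blood and 53.3% ± 1.09 in WT blood (SD, n = 3 each). Complex I genes took 16.1% ± 1.28, 16.3% ± 1.13, 16.5% ± 1.77 and 18.1% ± 1.16 in the same groups, without any count of Mt-nd4. Mt-nd4l and Mt-nd6 of complex I and Mt-atp8 of complex V are not in the list and do not enter these sums. Mt-cyb of complex III took 12.2% ± 1.116 in parenchyma and 13.8% ± 0.353 in Tg blood, and Mt-atp6 of complex V took 14.0% ± 0.759 in parenchyma, 15.5% ± 0.895 in meninges and 15.1% ± 0.505 in Tg blood. The ratio of complex IV to complex I counts among the listed genes lay between 2.72 in WT blood replicate 2 and 4.03 in parenchyma replicate 3. These proportions are of reads and were not tested.

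The proportions that separated groups were few. Mt-atp6 took 14.4%, 14.5% and 13.2% of the members' counts in parenchyma, below the 15.01%, 15.02% and 16.6% in meninges and narrowly below the 15.5%, 15.3% and 14.6% in Tg blood. Mt-cyb took 11.1%, 13.4% and 12.3% in parenchyma, below the 13.4%, 14.1% and 13.9% in Tg blood (13.35% at the highest in parenchyma, against 13.44% at the lowest in blood). Thus 2 of 9 genes separated parenchyma from blood and 1 of 9 parenchyma from meninges on this scale, where 29.7% and 16.6% of all tested genes did so when their counts were set against the same sum. Mt-nd2 took 6.62%, 6.33% and 5.77% in Tg blood, below the 6.81%, 7.24% and 6.66% in WT blood, and was the 1 gene of 9 that separated the genotypes (27.9% of all genes). Between meninges and blood 0 of 9 did so, beside 18.0% of all genes. The members are part of this sum and vary with it, which other genes need not. The rates for members and for all genes on this scale are therefore unlike measures. Mt-co1 took 34.3%, 30.0% and 37.0% in parenchyma, against 31.3%, 30.1% and 28.7% in meninges and 29.6%, 29.3% and 31.6% in Tg blood. Its 2 highest values were parenchyma libraries, but the groups overlapped. None of these separations was seen when Mt-co1 was left out of the sum. The proportion of Mt-atp6 was then 21.2% in parenchyma, 22.2% in meninges and 21.7% in Tg blood on average, with overlapping libraries. Its difference, parenchyma minus blood, was -0.49 points in place of -1.11, and parenchyma minus meninges -1.01 in place of -1.51. Leaving out Mt-co1 raises all other proportions, as from 15.1% to 21.7% for Mt-atp6 in Tg blood. Points with and without Mt-co1 are therefore on unlike scales. The genotypes overlapped narrowly for Mt-nd2, whose highest Tg library was at 9.41% and its lowest WT library at 9.39%. They were narrowly separate for Mt-cyb, whose lowest Tg library was at 19.11% and its highest WT library at 19.07%. The share of all tested genes that separated the genotypes on the sum without Mt-co1 was not computed, so this separation cannot be set beside a background.

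**Figure D5:**
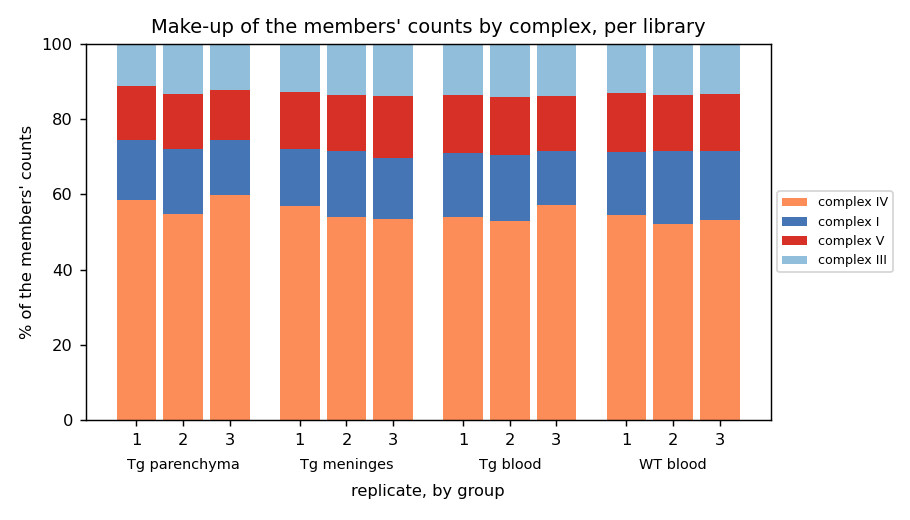
Make-up of the members' counts (y axis, percent, summing to 100 in each library) by the complex to which the gene belongs, for the 12 libraries (x axis, replicates by group). Complex IV holds between 52.2% and 59.8% in every library, and complex I, here without Mt-nd4, Mt-nd4l and Mt-nd6, between 14.4% and 19.2%. Complex V is Mt-atp6 alone, without Mt-atp8.

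Genes with a pattern like the members' were sought among the 12096 other genes that passed the filter over the 12 libraries. The 5 highest Pearson correlations with the members' mean log2 CPM over the 12 libraries ran from 0.877 to 0.943. Those of the members themselves ran from 0.782 for Mt-nd3 to 0.986 for Mt-co2. Each member is part of that mean, which raises its value, and the 5 genes were picked as the highest of 12096. The ranges are therefore unlike measures. The first was ENSRNOG00000033299, at 783, 856, 749 and 1062 CPM on average in Tg parenchyma, Tg meninges, Tg blood and WT blood. The next was ENSRNOG00000029042 (r = 0.901), at 381, 466, 378 and 507 CPM in the same groups. The sources used here pair neither identifier with a name. Only the listed genes were left out of the search, so the genes found may include other mitochondrially encoded genes.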

How the data were processed

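Whole-number counts per gene, as deposited, 1 file per library, were used. The submitters' processing notes name R 3.4.2, DESeq2 1.14.1, featureCounts 1.5.0-p1, STAR 2.5, FastQC 0.11.5 and bcl2fastq 2.17.1.14, and the build rn6. They state neither settings nor strand handling, nor how reads that match several places were treated. Nuclear copies of mitochondrial genes, overlapping genes and genes on the opposite strand may therefore share or lose reads. Per the labels' protocols, Trizol was used for extraction and both a TruSeq and a NEBNext low-input kit were in use. Which kit made which library is not stated, so kit and group cannot be told apart.

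Groups and replicate numbers came from the titles. The members and lists were chosen with earlier results of these data known. CPM values here are counts scaled to a library's total, without TMM factors. edgeR 4.0.16 in R 4.3.3 was run on the whole table: filterByExpr with a minimum count of 10, TMM scaling, quasi-likelihood F test, Benjamini-Hochberg adjustment, threshold 0.05. The tissue contrasts came from a fit of the 9 Tg libraries (11809 genes, 6 residual degrees of freedom), and the genotype contrast from one of the 6 blood libraries (11618 genes, 4 residual degrees of freedom). The procedure was tested on simulated data with changes larger than those estimated for the members. Whether it would call changes as small as theirs was not tested. Alternatives were other scalings, no filter, DESeq2 1.42.0, limma-voom (limma 3.58.1), other sets of libraries, a replicate block and omission of each library. The lists of nuclear respiratory genes and of cell type markers, 175 symbols in all, could not be used, since 0 lines of the reference table hold an Ensembl identifier. Named genes were all members and, for likeness, the 5 genes with the highest correlation with the members' mean log2 CPM (TMM scaled, prior count 0.5), of which 2 are printed. The lowest chi-square per degree of freedom between replicates of a group was 13.9, so that no pair agreed within sampling noise.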

Additional observations from a re-analysis of the deposited data

How the results depend on the processing

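The spread between the 3 libraries of a group, whose summed shares differed by up to 1.60-fold, exceeded counting error and limits all comparisons here. The number of the 9 counted mitochondrial genes called was 0 in each tissue comparison under every alternative run, including the replicate block and each omission of a library. In Tg against WT blood it was 1, and 2 without a filter on low counts, 2 with DESeq2, 0 in the fit of all 12 libraries, and 0 to 2 over the omissions; the cause was not tested. With the replicate block it was 1. Same-numbered libraries did not deviate together in every pair (correlations of 0.0935 to 0.229 for meninges and blood, -0.127 to 0.0094 for parenchyma and blood, -0.311 to 0.040 for parenchyma and meninges, -0.073 to 0.225 for the genotypes), although in meninges and blood all 6 libraries correlated best with their own number, a hint from the data only. Counts per length could not be computed. Of the single log2 fold changes under an alternative, 466 kept their direction and side of the threshold, 29 changed sign, 6 lost and 3 gained a call; those that changed sign were of genes not called. Without a filter on low counts, Mt-nd1 was at -0.022 and Mt-co3 at -0.015 in parenchyma against blood, and with library totals only, Mt-co1 was at 0.043 in parenchyma against meninges. Over omissions of 1 library, in meninges against blood, Mt-nd1 ranged from -0.013 to 0.31, Mt-nd2 from -0.040 to 0.27, Mt-co1 from -0.078 to 0.37, Mt-co2 from -0.094 to 0.36, Mt-co3 from -0.016 to 0.45, Mt-nd3 from -0.35 to 0.0038 and Mt-cyb from -0.053 to 0.28. In parenchyma against blood, Mt-nd1 ranged from -0.15 to 0.12, Mt-nd2 from -0.20 to 0.10, Mt-co1 from -0.014 to 0.34, Mt-co2 from -0.25 to 0.080, Mt-atp6 from -0.28 to 0.050, Mt-co3 from -0.16 to 0.21 and Mt-nd5 from -0.12 to 0.29. In parenchyma against meninges, Mt-nd1 ranged from -0.31 to 0.0086, Mt-co1 from -0.22 to 0.23, Mt-co2 from -0.44 to 0.0068 and Mt-co3 from -0.41 to 0.018. The differences in summed share stayed within 1 SD of the reported ones under all alternatives run, although those between tissues changed sign over the omissions. Without Mt-co1 in the denominator, 6 differences in the members' proportions moved by more than 1 SD and 26 by less. The SD was that of the scale with Mt-co1, and the moves include the rescaling by the smaller sum. The difference of Mt-atp6 in parenchyma against meninges moved by less, at -1.01 in place of -1.51 points. None of the reported separations of groups remained.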
